A study of Mus musculus with 2 samples.

Results

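Mir21a, Mir146, Mir146b and Mir155 are microRNA genes best known from inflammation and immune cells, and here they were counted in intestine from mouse embryos. They were picked by name, as the rows whose Ensembl identifier belongs to one of these symbols in the GENCODE annotation, and all 4 were found among the 1973 gene rows. The tissue came from B6NCrl mice at 14.5 days of embryonic development, untreated as far as the labels say, in 2 small RNA libraries labelled as biological replicates 1 and 2 of 1 group. The labels speak both of the intestine of a single pup and of pooled male and female sex, which cannot be settled here. The collection day was 17 of the month for replicate 1 and 15 for replicate 2, so collection day and replicate cannot be told apart.

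MicroRNAs are cut from hairpin precursors and pair with messenger RNAs mainly through the seed, bases 2 to 8 counted from the 5′ end. miR-146a is made when NF-kB is activated and represses the signalling proteins Traf6 and Irak1, so that it damps the response that induced it. miR-155, from the transcript once called Bic, is induced in activated lymphocytes and macrophages and represses Socs1 and Inpp5d. miR-21 is less restricted: it is abundant in many tissues, rises in inflammation and fibrosis, and represses Pdcd4. The samples were taken before birth, and so before the bacterial colonisation of the gut that follows it.

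The 5p arms, which are the usual guide strands, are shown to let their seeds be compared, with the seed in capitals, beside those of Mir21b and Mir21c, genes named as relatives of Mir21a. All 4 genes were matched to RefSeq's mature sequences (GRCm38.p6).
miR-21a-5p: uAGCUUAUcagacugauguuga
miR-21b: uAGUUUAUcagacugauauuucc
miR-21c: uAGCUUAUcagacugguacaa
miR-146a-5p: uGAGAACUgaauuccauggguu
miR-146b-5p: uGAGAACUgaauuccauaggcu
miR-155-5p: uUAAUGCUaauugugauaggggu
The 4 genes thus carry 3 seeds. miR-146a-5p and miR-146b-5p share theirs and are identical over the first 17 bases. Counted from the 5′ end of miR-146a-5p, they differ by G18A and U21C. miR-21c has the seed of miR-21a-5p, whereas miR-21b differs inside it (C4U). No other mature sequence in the table has the seed of miR-155-5p.

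Mir21a (ENSMUSG00000065455.1) lies on chromosome 11 of GRCm38, the mm10 assembly, at 86584067 to 86584158 on the minus strand, in the 3′ untranslated part of the last exon of Vmp1. Mir146 (ENSMUSG00000065601.1), the source of miR-146a, lies on the same chromosome and strand at 43374397 to 43374461, outside any other annotated gene. Mir146b (ENSMUSG00000070127.2) lies on chromosome 19 at 46342762 to 46342870, plus strand, in an intron of Mfsd13a. Mir155 (ENSMUSG00000065397.1) lies on chromosome 16 at 84714140 to 84714204, plus strand, in an exon of its host transcript Mir155hg.

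Levels are counts on the gene's strand scaled to a library total of 1000000 such counts (CPM). Replicate 1 held 15090126 of them and replicate 2 held 3903472. Where no read was found, the level may still be as high as 0.199 CPM in the first library and 0.769 CPM in the second, if 3 counts are taken as the limit. Genes with 10 or more counts in each library, 363 in number, are called detected. Mir192, Mir194-1, Mir194-2 and Mir215, known from intestinal epithelium, were all 4 detected and held 0.898% and 1.14% of the counts in replicates 1 and 2. Counting intervals are at 95% and leave out differences between animals, ligation and PCR. Ligation and PCR favour some sequences, so ratios between genes below compare counts and not molecules. In bulk tissue, fewer cells of a type and less RNA per cell cannot be told apart.

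The 4 genes spanned more than 4 orders of magnitude, from one of the most abundant microRNAs of the tissue to a gene with a handful of reads. Mir21a had 249239 counts in replicate 1 and 75691 in replicate 2. These are 16517 CPM (Wilson interval 16453 to 16581) and 19391 CPM (19254 to 19528), or 17954 ± 2032 CPM (SD, n = 2). Replicate 2 was the higher, and the intervals of the 2 libraries did not overlap. It ranked 15 in replicate 1, 14 in replicate 2 and 14 by mean level.

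Mir146 and Mir155, the pair tied to activated immune cells, stood far lower but clear of the detection limit in both libraries. Mir146 had 982 and 305 counts in replicates 1 and 2. Its levels were 65.1 CPM (61.1 to 69.3) and 78.1 CPM (69.8 to 87.4), with a mean of 71.6 ± 9.23 CPM (SD, n = 2), rank 215. Mir155 had 853 and 270 counts in replicates 1 and 2. Its levels were 56.5 CPM (52.9 to 60.4) and 69.2 CPM (61.4 to 77.9), with a mean of 62.8 ± 8.94 CPM (SD, n = 2), rank 225. For each gene the intervals of the 2 libraries did not overlap, and replicate 2 was again the higher. Both lay below the median mean level of the detected genes, 129 CPM.

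Mir146b was at the edge of what these libraries can show. Replicate 1 gave 3 reads and replicate 2, the shallower library, gave 7, 10 in all, and so was not called detected. Its levels were 0.199 CPM (exact interval 0.0410 to 0.581) and 1.79 CPM (0.721 to 3.69), the first at the limit that a count of 0 allows.

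**Figure D1:**
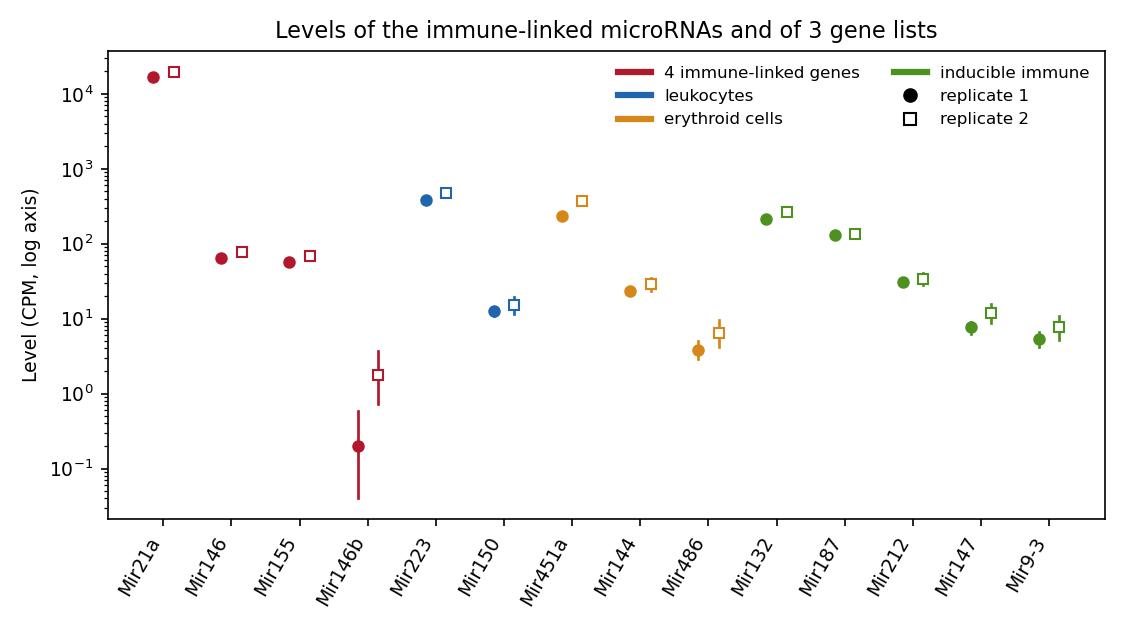
Level of each gene in CPM on a log axis, with filled circles for replicate 1, open squares for replicate 2 and lines for exact 95% counting intervals. Mir21a sits at 16517 and 19391 CPM, Mir146 and Mir155 between 56.5 and 78.1 CPM, and Mir146b at 0.199 and 1.79 CPM; genes without a count are left out.

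The order of the 4 genes was the same in both libraries, but its middle step was small. Mir21a exceeded Mir146 254-fold in replicate 1 (238 to 270) and 248-fold in replicate 2 (222 to 279), a log2 ratio of 7.97 ± 0.02. The ratio therefore differed by only 0.03 on the log2 scale between the libraries. Mir146 exceeded Mir155 1.15-fold in replicate 1 (1.05 to 1.26) and 1.13-fold in replicate 2 (0.956 to 1.34). This step of 0.19 ± 0.02 in log2 was larger than the gap of 0.03 between the libraries. The interval of replicate 2 nevertheless includes equal counts, so the order of this pair is not settled there. Mir155 exceeded Mir146b 284-fold in replicate 1 (97.0 to 1381) and 38.6-fold in replicate 2 (18.5 to 96.9), with the wide intervals that 3 and 7 reads give. No test of these ratios was run; the smallest two-sided p of an exact sign test over 2 libraries is 0.5.

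Together the 4 genes held 1.66% of the counts in replicate 1 and 1.95% in replicate 2, 1.81 ± 0.205%. Mir21a alone made up 99.3% and 99.2% of that sum. Without it, the remaining 3 genes held 0.0122% and 0.0149% of all counts.

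Among the genes with the seed of miR-146, nearly every read came from Mir146. Its share of the summed counts of Mir146 and Mir146b was 99.7% in replicate 1 (Wilson interval 99.1 to 99.9%) and 97.8% in replicate 2 (95.4 to 98.9%). The hairpins of Mir146 and Mir146b have 21 identical bases in a row. A read that lies within this stretch matches both places, and a read that aligned to several places was given to neither gene, so both levels and their shares are uncertain. Mir21c, with the seed of miR-21a, had 0 counts in both libraries, and Mir21b had 2 and 0. The longest stretch that Mir21a has in common with any other microRNA hairpin in the RefSeq table is 15 bases, with Mir21c. For Mir155 that stretch is 11 bases.

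With 2 libraries of 1 group no pattern across samples can be matched, so likeness was taken as nearness in mean level. Mir21a stood between Mir30e (22223 ± 1663 CPM) and Mirlet7i (22671 ± 945 CPM) above and Mir99b (16977 ± 55.3 CPM) and Mir429 (16430 ± 1398 CPM) below. Mir429 belongs to the miR-200 family of epithelial identity. Its distance and that of Mir99b from Mir21a were smaller than the SD of Mir21a, and Mir99b was the higher of the pair in replicate 1 at 16937 CPM. Mir30e and Mirlet7i were higher than Mir21a in both libraries.

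Mir146 lay next to Mir3102 (71.7 ± 6.11 CPM) and Mir666 (74.2 ± 7.33 CPM) above it and Mir103-2 (70.1 ± 7.08 CPM) and Mir802 below it. Mir802 is near only by its mean, since its level was 1.59 CPM in the first library and 137 CPM in the second. Mir155 lay next to Mirlet7c-1 (63.2 ± 2.94 CPM) and Mir505 (64.1 ± 5.78 CPM) above and Mir18b (60.4 ± 6.19 CPM) and Mir26a-2 (58.4 ± 3.70 CPM) below. None of these 8 neighbours differed in mean from Mir146 or Mir155 by more than the SD of the gene it lies beside. They were picked by nearest mean, so this closeness follows from the choice. Mir103-2, Mirlet7c-1 and Mir26a-2 each have another numbered copy among the gene rows. Reads that match both copies were given to neither, so the levels of these neighbours may be too low. Mir146b had Mir5100, Mir6960, Mir7224 and Mir5104 around it, all between 0.981 and 1.04 CPM, where a few reads set the order.

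**Figure D2:**
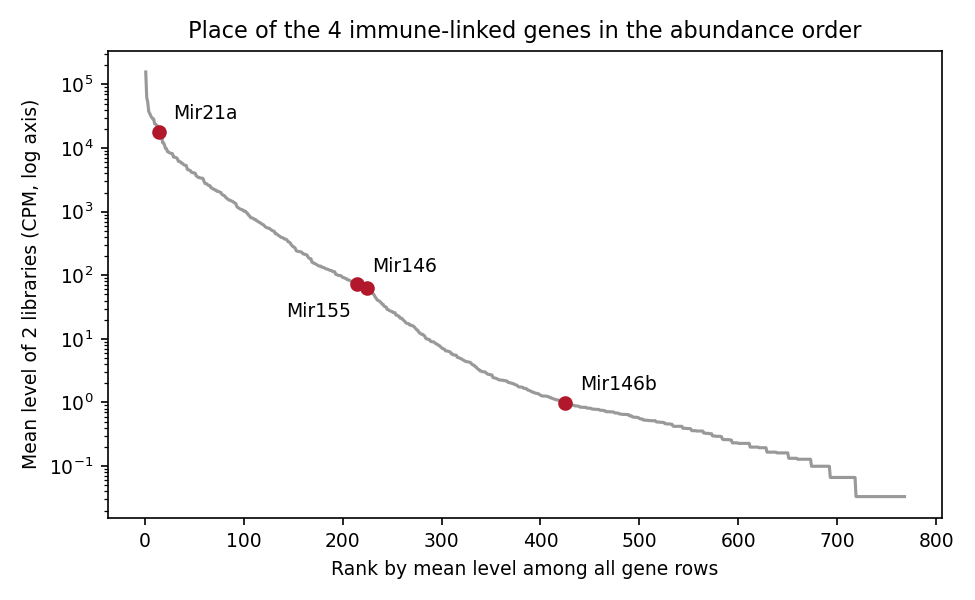
Mean level in CPM on a log axis against rank for every gene with a count, with the 4 immune-linked genes as red points. Mir21a lies on the steep left end at rank 14, Mir146 and Mir155 lie side by side at ranks 215 and 225, and Mir146b lies at rank 425.

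Mir21a was far more abundant than the microRNAs that mark blood cells, and Mir146 and Mir155 lay among them. The leukocyte list held Mir223, known from myeloid cells, Mir150, known from lymphocytes, and Mir142b. Mir223 had 379 and 472 CPM in replicates 1 and 2, and Mir150 had 12.6 and 15.1 CPM. Mir142b had 0 counts on its own strand in both libraries, so the list rests on Mir223. The strand opposite Mir142b, where Mir142 of blood cells is annotated, held 537 and 699 CPM. The list held 0.0392% and 0.0488% of the counts, and Mir21a exceeded it 42.2-fold (41.1 to 43.3) and 39.8-fold (38.0 to 41.6). These shares and ratios leave the opposite-strand reads out. With both strands counted the mean share of the list rose from 0.0440% to 0.103%.

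Mir146 and Mir155 kept nearly fixed proportions to the leukocyte genes in both libraries. Mir223 exceeded Mir146 5.82-fold in replicate 1 (5.44 to 6.24) and 6.05-fold in replicate 2 (5.35 to 6.85). It exceeded Mir155 6.71-fold (6.24 to 7.21) and 6.83-fold (6.01 to 7.79). Mir146 in turn exceeded Mir150 5.17-fold in both libraries (4.42 to 6.07 and 3.90 to 6.95). Mir155 exceeded Mir150 4.49-fold (3.83 to 5.28) and 4.58-fold (3.44 to 6.17). Each of these ratios had overlapping intervals in the 2 libraries. Such proportions were not particular to leukocyte genes. From replicate 1 to 2, Mir146 rose by log2 0.26 and Mir155 by 0.29. The leukocyte list rose by 0.32, the miR-200 family by 0.29 and the intestinal epithelial genes by 0.34. Mir214 with the Mir199 genes of mesenchyme rose by 0.21 and Mir126a of endothelium by 0.04. The smooth muscle list, led by Mir143, differed by -0.20. Which cells of the tissue hold Mir146 and Mir155 was not tested.

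Against the lists for the tissue's own layers, Mir21a stood in the same range of counts, except for the smooth muscle list, which was far higher. It exceeded the summed intestinal epithelial list 1.84-fold in replicate 1 and 1.71-fold in replicate 2. It exceeded the mesenchymal list of Mir214 and the Mir199 genes 1.70-fold and 1.73-fold. Mir194-1 and Mir194-2, and likewise the Mir199 genes, are copies of each other. Reads that match several copies were given to no gene, so the sums of these lists may be too low and both ratios too high. The 5 genes of the miR-200 family together exceeded Mir21a 2.12-fold and 2.21-fold. Mir126a of endothelium exceeded it 1.42-fold and 1.25-fold, and the smooth muscle list, led by Mir143, 10.4-fold and 7.72-fold. Each of these ratios had one sign in both libraries and was larger than its own gap between them.

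All 3 detected genes were higher in replicate 2, by similar amounts. For each gene a two-sided exact binomial test asked whether its counts divide between the libraries as the totals do, and p-values were adjusted by Benjamini-Hochberg across the 363 detected genes. It speaks of this pair of libraries only, not of a condition. Of the genes tested, 43.8% passed at 0.05, 29.8% higher in replicate 2 and 14% lower, so a pass is common in this pair of libraries. Mir21a was 1.17-fold higher in replicate 2 (log2 0.23, interval 0.22 to 0.24, adjusted p = 6.67e-316 by the exact test). Mir146 was 1.20-fold higher (log2 0.26, 0.07 to 0.45, adjusted p = 0.0154 by the exact test). Mir155 was 1.22-fold higher (log2 0.29, 0.09 to 0.49, adjusted p = 0.0120 by the exact test). Thus 3 of 3 detected genes passed, beside the 29.8% of all detected genes that passed in this direction.

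The median log2 difference of the 3 was 0.26, against 0.06 over all detected genes, whose median absolute difference was 0.15. Mir21a, Mir146 and Mir155 stood at percentiles 66.4, 70.2 and 74.1 of the absolute differences of detected genes, so that none was among the outlying genes. The library totals bear on these calls. With TMM library sizes the log2 differences were 0.15 for Mir21a, 0.18 for Mir146 (adjusted p = 0.122 by the exact test) and 0.21 for Mir155 (adjusted p = 0.0916 by the exact test). With median-of-ratios size factors they were 0.14, 0.17 (adjusted p = 0.143 by the exact test) and 0.20 (adjusted p = 0.108 by the exact test). The direction held for all 3 genes, but only Mir21a passed under these scalings. Of all calls, 67.9% were higher in replicate 2 with the library totals, 40.8% with TMM and 37.5% with median-of-ratios factors.

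Mir146b was outside that test. Its 9.02-fold higher level in replicate 2 (2.06 to 54.1) rests on 3 and 7 reads. With every gene holding at least 1 count in either library included, it passed (adjusted p = 0.00642 by the exact test), beside 19.8% of the 768 genes then tested, 14.3% higher in replicate 2 and 5.47% lower.

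**Figure D3:**
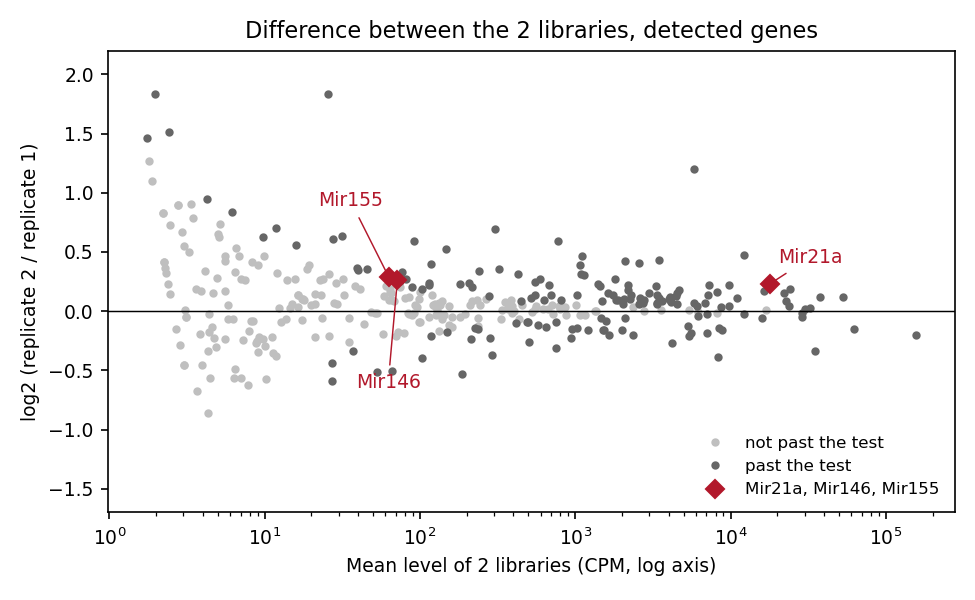
Log2 of replicate 2 over replicate 1 against mean level in CPM on a log axis, 1 point per detected gene, dark where the exact test was passed; 1 gene lies above the plotted range. Mir21a, Mir146 and Mir155 lie at 0.23, 0.26 and 0.29, inside the cloud of the other genes.

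Among the blood cell genes, Mir223 and Mir451a were also called higher in replicate 2, whereas Mir150, Mir144 and Mir486 did not pass. Of 12 measured genes of the leukocyte, erythroid and inducible lists 10 were detected. With the library totals the log2 difference was above 0 for all 10, as for 62.0% of detected genes. Of the 10, 4 passed (Mir223, Mir451a, Mir132 and Mir147), beside 29.8% of detected genes called higher. With TMM or median-of-ratios factors it was above 0 for 9, and 3 passed, beside 16% and 14.9% of detected genes called higher. The value of Mir187 was then below 0 and Mir147 no longer passed. Mir223 differed by log2 0.32 (0.24 to 0.39, adjusted p = 4.83e-15 by the exact test) and also passed with TMM and with median-of-ratios factors. Mir150 differed by 0.26 (-0.18 to 0.69), an interval that includes no change. The summed leukocyte list differed by 0.32 and the erythroid list, led by Mir451a at 231 and 374 CPM, by 0.66. The erythroid list held 0.0258% and 0.0409% of the counts, with none of its 3 genes at 0. Outside these lists, all 5 genes of the miR-200 family and all 4 intestinal epithelial genes were called higher with the library totals. As sums they differed by log2 0.29 and 0.34. Mir126a was called higher by 0.04, the mesenchymal list had 1 gene called higher and 1 lower, and the smooth muscle list 0 and 1. The part of blood cells or of other cells in the differences of Mir21a, Mir146 and Mir155 was not tested.

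MicroRNAs that inflammatory signals induce in leukocytes were present at a wide range of levels. Mir132 had 211 and 267 CPM in replicates 1 and 2 and was called higher in replicate 2 (log2 0.34, 0.24 to 0.44, adjusted p = 3.7e-10 by the exact test). Its neighbour Mir212, cut from the same transcript, had 30.9 and 34.1 CPM, so that Mir132 held 6.81 and 7.83 times its counts. Mir187, which is induced by interleukin 10 in monocytes, had 132 and 136 CPM. Mir147, which Toll-like receptors induce in macrophages, had 7.62 and 11.8 CPM from 115 and 46 counts (log2 0.63, adjusted p = 0.0346 by the exact test). Mir9-3 had 5.30 and 7.69 CPM, and Mir9-2 had no count. Mir9-2 and Mir9-3 are copies, and reads that match both were given to neither, so these values may be too low for miR-9. Of the 6 measured genes 5 were detected, 2 were called higher and 0 lower, beside 29.8% and 14% of all detected genes. Mir147 lost its call with TMM sizes (adjusted p = 0.0806 by the exact test) and with median-of-ratios factors (0.0785). Mir132 and Mir187 therefore exceeded Mir146 and Mir155 in both libraries, while Mir212, Mir147 and Mir9-3 stood below them. The Mir9 genes and the Mir132 locus are also known from neurons. Mir21a exceeded the summed list 42.8-fold and 42.5-fold.

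**Figure D4:**
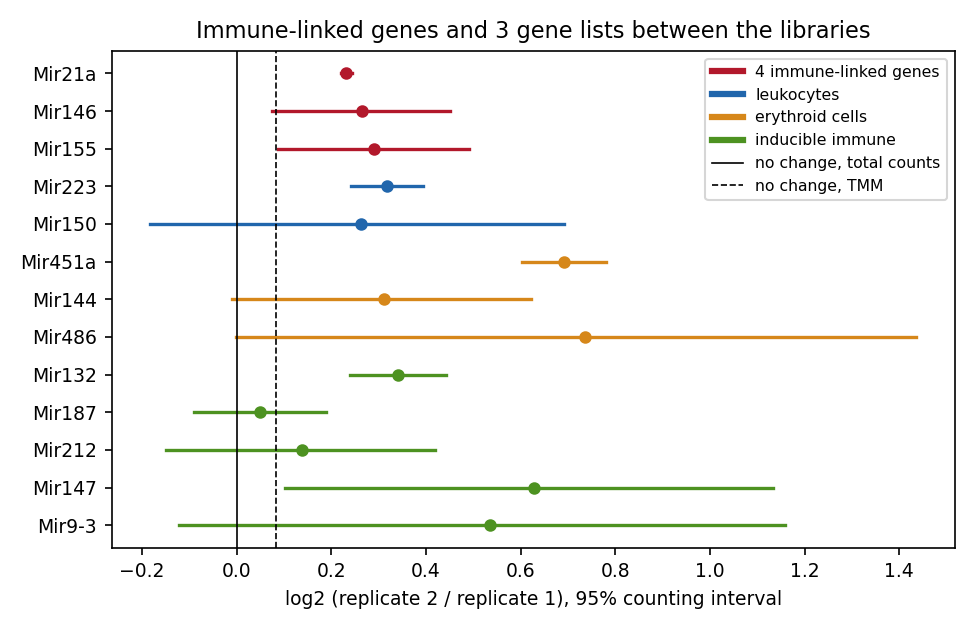
Log2 of replicate 2 over replicate 1 with 95% counting intervals for each detected gene of the 4 groups; the solid line marks no change with the library totals and the dashed line no change with TMM sizes. The intervals of Mir146 and Mir155 lie above the solid line at 0.07 to 0.45 and 0.09 to 0.49, while that of Mir146 reaches past the dashed line.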

How the data were processed

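Small RNA libraries were made from total RNA, per the labels. The authors deposited 1 table a library of raw read counts per gene, aligned to mm10 with GENCODE M4 genes, per the text files deposited beside the tables. The first of the 3 count columns equals the sum of the others in every gene row and was read as both strands. The second was read as gene strand and the third as opposite strand, which the sum alone does not settle. The second held 15090126 of 15538469 counts in replicate 1 and 3903472 of 4028287 in replicate 2. The aligner, trimming and counting program are not given in the sources used here. Rows that name no gene stayed out of totals and tests: reads with several alignments made up 26.5% and 26.6% of the table in replicates 1 and 2, unaligned reads 12.4% and 13.8%, and reads on no gene 2.20% and 2.10%. PCR copies count as reads.

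Symbols and positions came from GENCODE M21 (GRCm38), which held 1894 of the 1973 identifiers, and sequences from RefSeq. Counts per gene do not separate the arms of a hairpin. Computation used Python 3.11.15 with scipy 1.17.1 (exact tests, checked on simulated counts) and edgeR 4.0.16 (TMM sizes only). The simulated counts held counting noise only, so they check the calculation and not the spread between animals or libraries. Median-of-ratios factors were computed directly. Genes named are the 4 chosen, their seed relatives and near copies, the blood cell and inducible lists, and the 2 genes next above and 2 next below each of the 4 in mean level. The genes, lists and tests were chosen with earlier results of these data known.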

Additional observations from a re-analysis of the deposited data

Results flagged for a closer look

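Reads on the opposite strand were left out of the levels and the main test, and entered only where both strands were counted together. At Mir142b they numbered 8096 in replicate 1 and 2730 in replicate 2, or 537 and 699 CPM on the scale of the gene-strand totals, against 0 counts on the gene's own strand. GENCODE M21 annotates Mir142, a microRNA of blood cells, on that strand of chromosome 11 at 87756864 to 87756927. These reads exceeded those of Mir223 1.42-fold (1.37 to 1.46) and 1.48-fold (1.40 to 1.57). At Mir486 of the erythroid list the opposite strand held 13 and 5 reads, above the 3 that a count of 0 allows. Mir146, Mir146b and Mir155 had no read on the opposite strand in either library, and Mir21a had 1, in replicate 2.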

How the results depend on the processing

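The order of Mir21a, Mir146, Mir155 and Mir146b held under all alternatives run. A change of library total cannot alter that order within a library, whereas thinning could. The sign of every difference between the libraries for these 4 genes also held. Mir146 lost its call with replicate 1 thinned to the depth of replicate 2 (log2 0.28, adjusted p = 0.0655 by the exact test), TMM sizes (0.18) and median-of-ratios factors (0.17), and Mir155 with TMM sizes (0.21) and median-of-ratios factors (0.20). Over the alternatives, adjusted p by the exact test ran from 0.0120 to 0.143 for Mir146 and from 0.00459 to 0.108 for Mir155. Levels moved with the total they were divided by, as its construction implies. Over all reads in the table, the means were 10131 CPM for Mir21a, 40.4 for Mir146 and 35.5 for Mir155, and the share of the 4 genes 1.02%. The lists then held 0.0248% (leukocytes), 0.0188% (erythroid) and 0.0238% (inducible). With Mir143 left out of the total, the means were 21279, 84.9 and 74.5 CPM, the share 2.14%, and the leukocyte and inducible lists 0.0521% and 0.04995%. The leukocyte list held 0.103% with both strands counted. The number of genes called ranged from 137 to 169. Leaving out a replicate leaves the other library's value. No paired analysis was possible because the design holds 1 group. Depth limits Mir146b most, since thinning left it 1 read in replicate 1.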
